A study of Saccharomyces cerevisiae with 16 samples.

Results

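The genes described here are *ZWF1*, *GND1*, *GND2*, *TKL1*, *TKL2* and *TAL1* of budding yeast, which encode enzymes of the pentose phosphate pathway. They were taken by symbol from the R64 (sacCer3) annotation and are 6 of its 6002 nuclear protein-coding ORFs, here read from start to stop codon. All 6 were found and all 6 are reported. RNAPII was mapped by ChIP-seq with the 8WG16 antibody against its largest subunit, and each immunoprecipitate has its own list of broad peaks called over input DNA. The 4 groups, with 2 peak lists each, were *ubc9-6* cells heat shocked at 37 °C for 12 min, WT cells heat shocked in the same way, untreated *ubc9-6* cells kept at 30 °C, and untreated WT cells kept at 30 °C. WT was the W303a strain. The *ubc9-6* strain carries, at the *UBC9* locus, repeated copies of a mutant allele together with a *TRP1* marker, which lowers the activity of Ubc9, the enzyme that passes SUMO to its targets. Both mutant groups carry this label, and no second mutant strain was used here. Peak positions do not report on Ubc9 activity, so the strain label could not be checked from them. *UBC9* itself had a covered share (the fraction of its base pairs under peaks) of 0.779 in *ubc9-6* heat shock list 1 and of 0 in the other 7 lists. That cover came from a peak of 8454 bp that lay over 6 other ORFs and ended within *UBC9*.

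The pentose phosphate pathway starts from glucose-6-phosphate. In its oxidative branch, the dehydrogenase Zwf1, the 6-phosphogluconolactonases Sol3 and Sol4, and the 6-phosphogluconate dehydrogenases Gnd1 and Gnd2 yield NADPH, which yeast uses for biosynthesis and for defense against oxidants, and a pentose phosphate. In its non-oxidative branch, the transketolases Tkl1 and Tkl2 and the transaldolases Tal1 and Nqm1 interconvert sugar phosphates and link the pathway to glycolysis and to the supply of ribose phosphate. In several of these pairs, 1 isozyme is known as the major one in growing cells (Gnd1, Tkl1, Tal1), and the other as a minor one.

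Because the isozymes of a pair are related in sequence, reads that fit both genes would blur any comparison between them, so the DNA of the pairs was compared first. The ORFs of *GND2* and *GND1* were identical at 78.6% of aligned positions, those of *TKL2* and *TKL1* at 69.1%, those of *NQM1* and *TAL1* at 67.8% and those of *SOL4* and *SOL3* at 56.4%. The longest run of identical bases was 20 in *GND2* and *GND1*, 17 in *TKL2* and *TKL1*, 17 in *NQM1* and *TAL1*, and 8 in *SOL4* and *SOL3*. Any longer stretch therefore differs between the genes of a pair. The stretches of 90 bases around the longest identical runs are shown from the R64 genome, each on the strand of its gene, with bases that differ between the isozymes in capitals. There were 19 such bases between the *GND* genes and 29 between the *TKL* genes.
GND2 chrVII:1004638-1004727 (plus strand): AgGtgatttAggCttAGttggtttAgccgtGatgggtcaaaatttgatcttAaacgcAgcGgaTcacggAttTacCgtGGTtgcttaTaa
GND1 chrVIII:470965-471054 (plus strand): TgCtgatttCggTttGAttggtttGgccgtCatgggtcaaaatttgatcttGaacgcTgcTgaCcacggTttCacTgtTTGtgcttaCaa
TKL2 chrII:475857-475946 (minus strand): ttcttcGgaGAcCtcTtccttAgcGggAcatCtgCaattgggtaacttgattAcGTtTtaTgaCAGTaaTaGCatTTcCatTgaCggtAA
TKL1 chrXVI:694258-694347 (minus strand): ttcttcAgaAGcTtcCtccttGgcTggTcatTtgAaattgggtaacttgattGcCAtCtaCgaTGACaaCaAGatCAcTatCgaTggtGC

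The DNA upstream of each ORF was searched, over 500 bases and on both strands, for the stress response element AGGGG, the element bound by the general stress activators Msn2 and Msn4, and for CGGNNTTA, the form of site described for Stb5, an activator of pentose phosphate genes under oxidative stress. The letters AGGGG occurred upstream of 34.1% of all ORFs, and CGGNNTTA upstream of 13.1%. Matches to these motifs describe the sequence only. *GND2* had 2 stress elements, starting 299 and 164 bases before the start codon, and 1 CGGNNTTA match at 216 bases. *GND1* had no stress element and 2 CGGNNTTA matches, at 283 and 262 bases. *TKL2* had 1 stress element, at 77 bases, and no CGGNNTTA match. *TKL1* had 1 stress element at 174 bases and 1 CGGNNTTA match at 419 bases. *ZWF1* had 5 stress elements within 235 bases of its start codon, a number reached by 12 ORFs in all (0.2%), and 1 CGGNNTTA match. *TAL1* had 1 stress element and 2 CGGNNTTA matches. The bases from 300 to 151 before the start codon are shown for the *GND* and *TKL* genes, because both isozymes of these pairs are among the 6 genes. Capitals mark the matches to either motif.
GND2 chrVII:1004324-1004473 (plus strand): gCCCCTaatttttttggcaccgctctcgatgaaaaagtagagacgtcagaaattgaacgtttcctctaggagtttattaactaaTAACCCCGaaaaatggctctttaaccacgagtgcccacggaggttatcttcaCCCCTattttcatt
GND1 chrVIII:470660-470809 (plus strand): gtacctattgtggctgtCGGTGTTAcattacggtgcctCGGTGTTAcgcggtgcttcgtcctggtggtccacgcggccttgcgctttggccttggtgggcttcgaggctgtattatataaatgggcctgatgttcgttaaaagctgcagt
TKL2 chrII:476588-476737 (minus strand): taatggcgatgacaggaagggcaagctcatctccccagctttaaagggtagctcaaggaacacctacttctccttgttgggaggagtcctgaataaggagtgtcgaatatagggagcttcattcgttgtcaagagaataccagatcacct
TKL1 chrXVI:694989-695138 (minus strand): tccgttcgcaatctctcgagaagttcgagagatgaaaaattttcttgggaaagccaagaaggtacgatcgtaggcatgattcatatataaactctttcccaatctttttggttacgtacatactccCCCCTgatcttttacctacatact

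The stress element of *TKL2* lies nearer to its ORF and is shown with its surroundings, again with the match in capitals.
TKL2 chrII:476498-476527 (minus strand): tcaattggcttgtCCCCTcttactgtagtc

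The lists held 1451 to 1545 peaks each, covering 2772801 to 3068400 bp. The heat shock lists covered 2772801 to 2972508 bp and the untreated lists 3017567 to 3068400 bp, so the heat shock lists covered less of the genome. The covered share is the fraction of an ORF's base pairs that lie under peaks of a list, and an ORF was called occupied where it was at least 0.5. By this measure, 1505 to 1727 ORFs (25.1 to 28.8%) were occupied in a list. The depth of each library is unknown from peak lists, so no counting error can be given, and an ORF without a peak is one without a call, whatever signal lay under the threshold.

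All 6 genes were occupied in both *ubc9-6* heat shock lists, 5 in both WT heat shock lists, 4 in both *ubc9-6* untreated lists and 4 in both WT untreated lists. *ZWF1*, *GND1*, *TKL1* and *TAL1* had a covered share of 1 in all 8 lists, a property of 630 ORFs in all (10.5%). Whatever differed at these 4 genes between conditions is therefore in the height and extent of their peaks and not in the covered share. *GND2* and *TKL2* were occupied in some conditions and not in others, and each is the isozyme partner of a gene that was covered throughout.

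**Figure D1:**
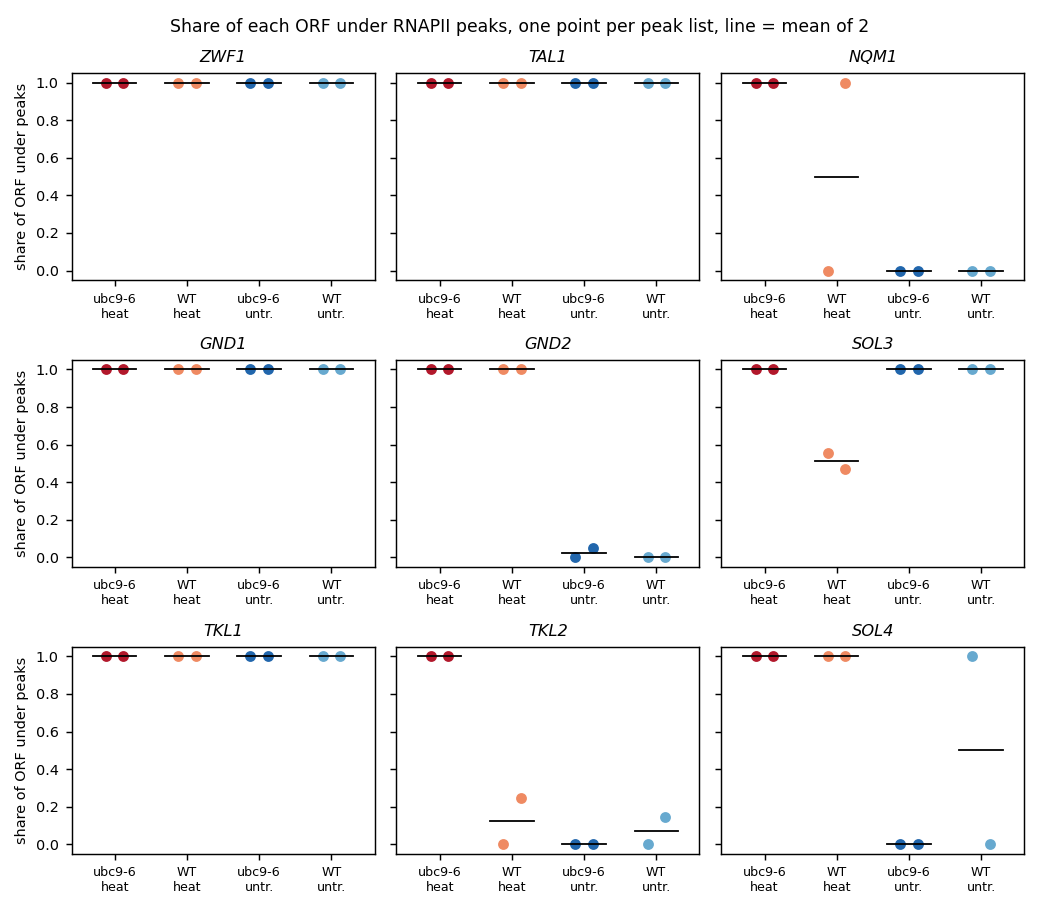
Share of each ORF under RNAPII peaks (vertical axis, 0 to 1) in the 2 lists of each of 4 groups (horizontal axis, heat shock left, untreated right), for the 6 genes and for NQM1, SOL3 and SOL4. Points are lists and lines are means of 2. ZWF1, TAL1, GND1 and TKL1 stay at 1, while GND2 is at 1 only in the 4 heat shock lists and TKL2 only in the 2 ubc9-6 heat shock lists.

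The 6-phosphogluconate dehydrogenase gene *GND2* (YGR256W, chromosome VII, 1004624 to 1006102, plus strand) was covered over its whole length after heat shock in both strains. Its covered share was 1 and 1 in *ubc9-6* heat shock lists and 1 and 1 in WT heat shock lists, against 0 and 0.051 in *ubc9-6* untreated lists and 0 and 0 in WT untreated lists. The heat shock and untreated values did not overlap in either strain. The difference, heat shock minus untreated, was 0.974 in *ubc9-6*, 1 in WT and 0.987 over both strains (exact permutation within strain, two-sided p = 0.0556, adjusted p = 1 over 6002 ORFs). This p is the smallest that the 36 arrangements allow, so the test cannot pass 0.05. Among all ORFs, 2.68% reached it with a higher share after heat shock and 2.7% with a lower one. *GND2* was 1 of 13 ORFs (0.217%) for which each of the 4 heat shock lists, and none of the 4 untreated ones, reached a share of 0.5.

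*GND1* (YHR183W, chromosome VIII, 470960 to 472429, plus strand), which encodes the major isozyme, had a share of 1 throughout. The difference *GND1* minus *GND2* was therefore 0 in all 4 heat shock lists, against 1 and 0.949 in *ubc9-6* untreated lists and 1 and 1 in WT untreated lists. On heat shock it changed by -0.987 (exact permutation within strain, p = 0.0556, the smallest possible). As the share of *GND1* did not vary, this is the change of *GND2* with its sign turned and not a further result. Over all 8 lists the mean of *GND1* minus *GND2* was 0.494 ± 0.528 (SD), positive in 4 lists and 0 in 4 (exact sign flips, two-sided p = 0.125). With *GND1* at 1 throughout, this difference could not be negative. The sign-flip p then follows only from the number of lists above 0 and cannot decide whether the isozymes differ.

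The peak that covered *GND2* was not its own alone. After heat shock a single peak of 5821 to 6792 bp reached over *ENO1*, the enolase gene, *COQ6*, a gene of ubiquinone synthesis that lies on the other strand, a tRNA gene and *GND2*, and ended 305 to 1225 bp past the *GND2* stop codon. *ENO1* was covered fully in all 8 lists. In the untreated lists the peak over *ENO1* ended 1899 and 1888 bp before the *GND2* start codon in *ubc9-6*, and 520 and 1881 bp before it in WT. The tRNA gene (YNCG0046W), 336 bp before *GND2*, had a share of 1 in all 4 heat shock lists and of 0 in all 4 untreated lists, as did most of the *GND2* ORF. *MTM1*, a mitochondrial carrier gene 102 bp past *GND2* on the other strand, was covered in part after heat shock, by 0.289 and 0.348 in *ubc9-6* and by 1 and 0.184 in WT, and by 0.064 or less without it.

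Because peaks were merged over this region, the fold enrichment of the heat shock peak is a mean over *ENO1*, *COQ6* and *GND2* and does not give the level over *GND2* alone. The peak ranked 109 and 75 by fold in *ubc9-6* heat shock lists and 40 and 32 in WT heat shock lists, where rank 1 has the highest fold of a list. In the untreated lists, the peak over *ENO1* without *GND2* ranked 87 and 39 in *ubc9-6* and 4 and 3 in WT. The only untreated peak that touched *GND2* was 249 bp wide, at the end of the ORF in *ubc9-6* untreated list 2, and ranked 1402 of 1451.

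The transketolase gene *TKL2* (YBR117C, chromosome II, 474392 to 476437, minus strand) was covered over its whole length only in heat-shocked *ubc9-6* cells. Its covered share was 1 and 1 in *ubc9-6* heat shock lists, 0 and 0.244 in WT heat shock lists, 0 and 0 in *ubc9-6* untreated lists and 0 and 0.144 in WT untreated lists. Both *ubc9-6* heat shock lists lay above the other 6 lists. *TKL2* was 1 of 35 ORFs (0.583%) occupied in these 2 lists and in none of the others. Heat shock minus untreated was 1 in *ubc9-6* and 0.050 in WT, and 0.525 over both strains (exact permutation within strain, p = 0.167, adjusted p = 1). The change in *ubc9-6* minus the change in WT was 0.950 (exact permutation within strain, p = 0.278, a test chosen after the values were seen), so a different response of the strains was not shown. Over both treatments, *ubc9-6* minus WT was 0.403 (exact permutation within treatment, p = 0.333, adjusted p = 0.918), with 0.878 after heat shock and -0.072 without it. For this comparison, 9.88% of all ORFs reached the smallest p with a higher share in *ubc9-6* and 6.36% with a lower one.

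*TKL1* (YPR074C, chromosome XVI, 692796 to 694838, minus strand), the gene of the major transketolase, was covered fully throughout. *TKL1* minus *TKL2* was 0 and 0 in *ubc9-6* heat shock lists, 1 and 0.756 in WT heat shock lists, 1 and 1 in *ubc9-6* untreated lists and 1 and 0.856 in WT untreated lists. The mean over the 8 lists was 0.701 ± 0.442 (SD), positive in 6 lists and 0 in 2 (exact sign flips, two-sided p = 0.0313). This was the only one of 4 isozyme pairs compared whose p was under 0.05, and adjusted over the 4 pairs it was 0.125. Leaving out any 1 of the 6 lists outside *ubc9-6* heat shock gave p = 0.0625 by the same exact test. As *TKL1* was at 1 in every list, its difference from *TKL2* could not be negative. These sign-flip p values then follow only from the number of lists with a difference above 0. No conclusion about the pair is drawn from them. On heat shock the difference changed by -0.525 (exact permutation within strain, p = 0.167), which is the change of *TKL2* with its sign turned.

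As at *GND2*, the peak over *TKL2* was shared with a strongly covered neighbor. In both *ubc9-6* heat shock lists a peak of 7002 and 6769 bp ran from 544 and 504 bp past the *TKL2* stop codon, over *TKL2* and the 1233 bp between the divergent ORFs, to *TEF2*, a gene of translation elongation factor eEF1A, and on over *MUD1*, which encodes a U1 snRNP protein. *TEF2* was covered fully in all 8 lists. In the other 6 lists the *TEF2* peak stopped 890 to 970 bp before the *TKL2* start codon, namely 907 and 896 bp in WT heat shock lists, 921 and 890 bp in *ubc9-6* untreated lists and 957 and 970 bp in WT untreated lists. The edge of that peak thus lay within 80 bp in 6 lists and was absent as an edge in the remaining 2. The partial cover of *TKL2* in WT list 2 of either treatment lay at the stop codon end of the ORF. In WT heat shock list 2 it came from a peak of 1008 bp that ranked 1488 of 1496, and in WT untreated list 2 from a peak of 5142 bp over *LYS2*, the aminoadipate reductase gene, which ranked 1064 of 1525. *TEF2* has a near-identical copy, *TEF1*, so reads of its ORF cannot be placed with certainty, and its share and rank are uncertain to that extent. The shared peak ranked 59 and 43 in *ubc9-6* heat shock lists. The *TEF2* peak without *TKL2* ranked 82 and 50 in WT heat shock lists, 29 and 7 in *ubc9-6* untreated lists and 104 and 48 in WT untreated lists.

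**Figure D2:**
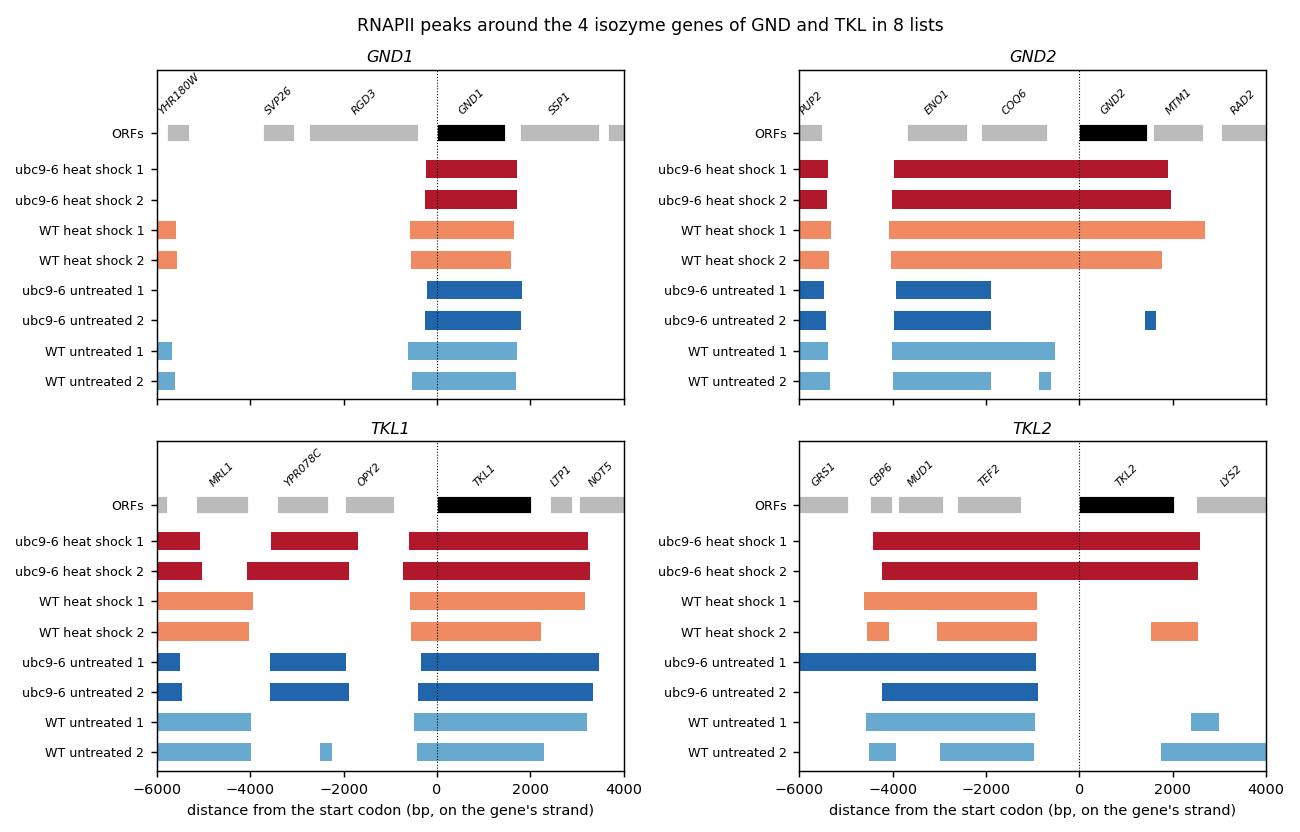
Position of RNAPII peaks (colored bars, one row per list, heat shock rows above untreated rows) around GND1, GND2, TKL1 and TKL2, with distance from the start codon in bp on the strand of each gene along the horizontal axis. Black boxes are the named ORFs, gray boxes are other ORFs, and bars and boxes that reach the axis limits go on past them. GND1 has a peak of its own in all 8 lists, whereas the peaks over GND2 and TKL2 are joined to those over ENO1 and TEF2.

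By the rule of gain or loss in both replicates, *GND2* and *TKL2* were gained on heat shock in *ubc9-6* (2 of 6 genes, against 3.28% of all ORFs gained), and 0 of 6 were lost (3.98% of all ORFs). In WT, *GND2* was gained (1 of 6, against 0.916% of all ORFs) and 0 of 6 were lost (1.75%). Of *ubc9-6* against WT, *TKL2* was gained after heat shock (1 of 6, against 4.98%) and 0 of 6 were lost (2.7%), while in untreated cells 0 of 6 were gained (5.55%) and 0 of 6 were lost (4.35%). With 2 lists against 2, the smallest exact permutation p is 0.333, so these calls carry no test. The comparisons of 1 group with 2 others share lists and are not independent of each other.

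The peaks of the 4 genes covered throughout could be compared by their fold rank. The rank percentile is 100 times the rank over the number of peaks in the list, so a low value is a high fold. Such a percentile can be set across conditions for the 1639 ORFs that a peak overlapped in all 8 lists. After heat shock the peaks over *GND1*, *TKL1* and *TAL1* had weaker ranks than in untreated cells of the same strain, without overlap, and those over *ZWF1* overlapped between treatments in WT. Among the 1639 ORFs, 11.2% reached the smallest exact permutation p with a weaker rank after heat shock, and 17.4% with a stronger one.

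*GND1* ranked 425 and 432 in *ubc9-6* heat shock lists and 442 and 724 in WT heat shock lists, against 206 and 179 in *ubc9-6* untreated lists and 197 and 224 in WT untreated lists. All 4 heat shock ranks were weaker than all 4 untreated ranks. Its rank percentile averaged 33.3 after heat shock and 13.4 without it, a difference of 19.9 points (exact permutation within strain, p = 0.0556, adjusted p = 0.194 over 1639 ORFs). In *ubc9-6* the difference was 15.1 points and in WT 24.6 points. WT heat shock list 2 was the weakest of the 8, at 48.4 against 28.7 in its replicate. Of the 1639 ORFs, 11.2% reached the smallest p with a weaker rank after heat shock and 17.4% with a stronger one. The peak over *GND1* was 1969 to 2336 bp wide and occupied no other ORF in any list, so its rank is that of *GND1*. It started 223 to 268 bp before the start codon in the 4 *ubc9-6* lists and 538 to 619 bp before it in the 4 WT lists, reaching the end of *RGD3* in WT only. The 2 strains did not overlap in this edge, but the share of all ORFs with such a separation was not computed.

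*TKL1* ranked 415 and 429 in *ubc9-6* heat shock lists and 573 and 533 in WT heat shock lists, against 298 and 309 in *ubc9-6* untreated lists and 403 and 360 in WT untreated lists. Within each strain the heat shock ranks were the weaker ones. The rank percentile was 32.0 after heat shock and 22.9 without it, a difference of 9.16 points (exact permutation within strain, p = 0.0556, adjusted p = 0.194). *TKL1* also differed by strain, with a stronger peak in *ubc9-6* at each treatment. It averaged 24.0 in *ubc9-6* and 30.8 in WT, a difference of -6.82 points (exact permutation within treatment, p = 0.0556, adjusted p = 0.139). Of the 1639 ORFs, 13.2% reached the smallest p with a stronger rank in *ubc9-6* and 26.8% with a weaker one. Its peak also occupied *LTP1*, a protein phosphatase gene, in 6 lists and not in WT list 2 of either treatment.

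*TAL1* (YLR354C, chromosome XII, 836350 to 837357, minus strand), the transaldolase gene, lay under the highest-ranking peaks of the 6 genes in untreated cells. It ranked 86 and 86 in *ubc9-6* heat shock lists and 84 and 119 in WT heat shock lists, against 15 and 12 in *ubc9-6* untreated lists and 35 and 23 in WT untreated lists. Its rank percentile was 6.17 after heat shock and 1.42 without it, a difference of 4.75 points (exact permutation within strain, p = 0.0556, adjusted p = 0.194), 4.72 in *ubc9-6* and 4.78 in WT. In all 8 lists the peak was shared with *ILV5*, a gene of branched-chain amino acid synthesis that was also covered fully. In both WT heat shock lists and in WT untreated list 1 the peak also occupied *ATG33*, which no *ubc9-6* peak did. The rank therefore belongs to *TAL1* and these neighbors together, and the extent of the peak differed between the strains. Between strains *TAL1* differed by -1.05 points (exact permutation within treatment, p = 0.167, adjusted p = 0.281).

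*ZWF1* (YNL241C, chromosome XIV, 196426 to 197943, minus strand), the glucose-6-phosphate dehydrogenase gene at the entry of the pathway, gave another order. It ranked 356 and 350 in *ubc9-6* heat shock lists and 294 and 272 in WT heat shock lists, against 699 and 762 in *ubc9-6* untreated lists and 265 and 292 in WT untreated lists. The 2 *ubc9-6* untreated lists were the weakest of the 8. The mean fold enrichment of the peak was 2.19 and 2.13 in *ubc9-6* heat shock lists and 2.40 and 2.54 in WT heat shock lists, against 1.58 and 1.499 in *ubc9-6* untreated lists and 2.55 and 2.40 in WT untreated lists. By strain, the rank percentile averaged 36.2 in *ubc9-6* and 18.5 in WT, a difference of 17.6 points (exact permutation within treatment, p = 0.0556, adjusted p = 0.139). The difference was 4.46 points after heat shock and 30.8 points without it. This smallest possible p was reached by 26.8% of the 1639 ORFs with a weaker rank in *ubc9-6*, and by 13.2% with a stronger one. By treatment, it differed by -13.0 points (exact permutation within strain, p = 0.222, adjusted p = 0.387), by -26.1 points in *ubc9-6* and 0.20 points in WT. The change in *ubc9-6* minus the change in WT was -26.3 points (exact permutation within strain, p = 0.167, a test chosen after the values were seen). The peak occupied *NAR1*, an iron-sulfur protein assembly gene, in 3 lists (*ubc9-6* heat shock list 1, WT heat shock list 1 and *ubc9-6* untreated list 1), with a share of 0.518 to 0.558, and touched it in all 8.

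For *GND1*, the rank percentile in *ubc9-6* minus that in WT was -5.75 points (exact permutation within treatment, p = 0.167, adjusted p = 0.281), and it was -0.83 points without WT heat shock list 2. Over the 1639 ORFs the median difference was -0.88 points for heat shock and 2.31 points for *ubc9-6*.

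**Figure D3:**
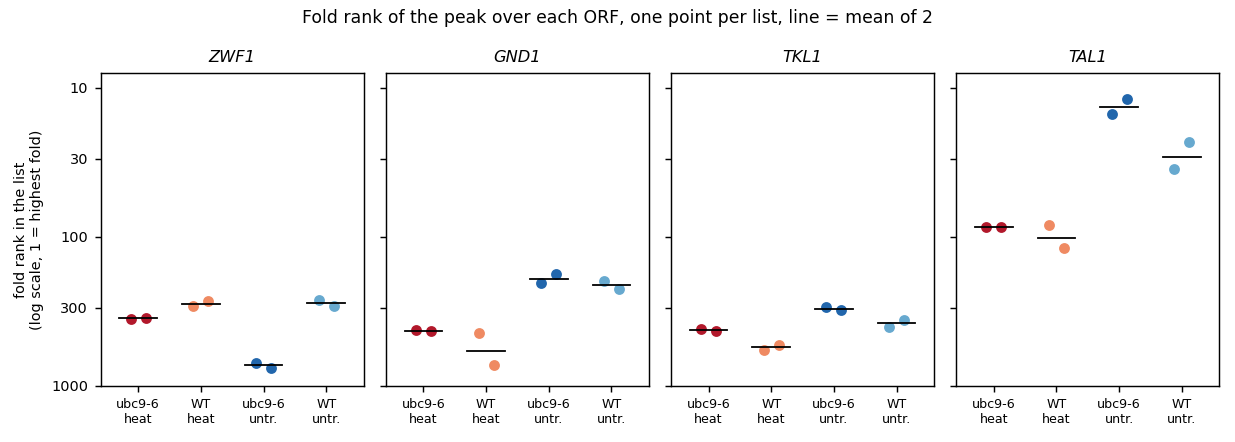
Fold rank of the peak over ZWF1, GND1, TKL1 and TAL1 in the 2 lists of each of 4 groups (horizontal axis, heat shock left, untreated right), on a reversed log scale on which the highest fold is at the top. Points are lists and lines are means of 2. GND1, TKL1 and TAL1 have weaker ranks in heat shock lists than in untreated lists of the same strain, while ZWF1 is weakest in the 2 ubc9-6 untreated lists.

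The other genes of the pathway were read in the same way. Of the 8, *SOL4*, *SOL1* and *NQM1* (3 of 8, against 3.28% of all ORFs) were gained on heat shock in *ubc9-6* and 0 of 8 in WT, where 0.916% of all ORFs were gained. *SOL2* (1 of 8) was lost in *ubc9-6* against WT at both treatments, as were 2.7% of all ORFs after heat shock and 4.35% in untreated cells. *SOL4*, which encodes a 6-phosphogluconolactonase, had shares of 1 and 1 in *ubc9-6* heat shock lists and 1 and 1 in WT heat shock lists, against 0 and 0 in *ubc9-6* untreated lists and 1 and 0 in WT untreated lists. The WT untreated peak was a weak one, at rank 893, against ranks 208 and 192 in *ubc9-6* heat shock lists and 235 and 251 in WT heat shock lists. Unlike those over *GND2* and *TKL2*, the *SOL4* peak was not joined to that of a strongly covered neighbor, and in WT it occupied no other ORF. Its partner *SOL3* had shares of 1 and 1 in *ubc9-6* heat shock lists and 0.553 and 0.471 in WT heat shock lists, and of 1 in all 4 untreated lists. *SOL3* minus *SOL4* was -0.244 after heat shock and 0.75 without it, a change of -0.994 (exact permutation within strain, p = 0.0556, the smallest possible). Over all lists its mean was 0.253 ± 0.651 (exact sign flips, p = 0.25).

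*NQM1*, which encodes the second transaldolase, was covered fully in both *ubc9-6* heat shock lists and in WT heat shock list 2, and had a share of 0 in WT heat shock list 1 and in all 4 untreated lists. In WT heat shock list 2 the peak was a weak one of 5246 bp, ranked 1152 of 1496, and also occupied *BUD9* and *MTE1*. The *ubc9-6* heat shock peaks ranked 514 of 1545 and 389 of 1512, and that of list 1 also occupied *MTE1*. *TAL1* minus *NQM1* averaged 0.625 ± 0.518 over the 8 lists (exact sign flips, p = 0.0625). With *TAL1* at 1 throughout, the sign-flip p again follows only from the number of lists above 0. *TAL1* minus *NQM1* was also read by treatment. It was 0.25 after heat shock and 1 without it, a change of -0.75 (exact permutation within strain, p = 0.167). This is the change of *NQM1* with its sign turned. *SOL1*, a relative of *SOL3* and *SOL4*, had shares of 1 and 1 in *ubc9-6* heat shock lists and 0.944 and 1 in WT heat shock lists, against 0 and 0 in *ubc9-6* untreated lists and 0.554 and 0.050 in WT untreated lists. Wherever a peak lay over *SOL1*, it was 4138 to 5198 bp wide and occupied 3 or 4 other ORFs. The cover is therefore not of *SOL1* alone. *SOL2* had 0 in all 4 *ubc9-6* lists, against 1 and 0.978 in WT heat shock lists and 1 and 0.923 in WT untreated lists. The WT peaks over *SOL2* were weak. They ranked 1249 of 1540 and 1400 of 1496 in heat shock lists, and 1222 of 1495 and 1492 of 1525 in untreated lists. Except in WT untreated list 2, they also occupied 3 other ORFs. *RPE1* and *RKI1*, which encode the epimerase and isomerase of pentose phosphates and have no isozyme, had shares of 0.183 or less in all 8 lists. *SHB17*, which encodes sedoheptulose bisphosphatase, ran from 0.130 to 1 and was occupied in *ubc9-6* untreated list 2 only.

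Of 6 genes of ribose phosphate use, the phosphoribosyl pyrophosphate synthetase gene *PRS3* was covered fully in both *ubc9-6* untreated lists and had a share of 0 in the other 6, so it was lost on heat shock in *ubc9-6* (1 of 6, against 3.98% of all ORFs) and gained in *ubc9-6* against WT in untreated cells (1 of 6, against 5.55%). The *PRS3* peaks in these untreated lists were weak, at ranks 988 of 1522 and 1099 of 1451. The other 5 genes of ribose phosphate use were neither gained nor lost in any comparison. Of all ORFs, 0.916 to 5.55% were so called per comparison and direction. Of 5 genes of other enzymes that yield NADPH, 0 were gained or lost in any comparison, against the same 0.916 to 5.55% of all ORFs. *MAE1* had shares of 0.867 and 0.347 in *ubc9-6* untreated lists and 0 and 1 in WT untreated lists. After heat shock it had 0 and 0 in *ubc9-6* lists and 0 and 0.253 in WT lists, so the treatments overlapped in WT. *IDP2* had shares of 0.233 or less, and *IDP3* of 0 in all 8 lists. The aldehyde dehydrogenase gene *ALD6* was covered fully in all 8 lists, and the mitochondrial isocitrate dehydrogenase gene *IDP1* had shares of 0.997 to 1. The *IDP1* peaks were 6433 to 8454 bp wide and occupied 4 to 6 other ORFs. Of 4 regulators, *YAP1*, an activator of the oxidative stress response, was covered fully in the 4 *ubc9-6* lists, with 0.466 and 0.4997 in WT heat shock lists and 0.158 and 0.522 in WT untreated lists, and was called gained in *ubc9-6* against WT after heat shock (1 of 4, against 4.98% of all ORFs), where WT heat shock list 2 lay just under the threshold. *STB5* had a share of 0 in all 8 lists. *MSN2* was occupied in *ubc9-6* untreated list 1 only, and *MSN4* in WT list 2 of both treatments and in *ubc9-6* untreated list 1. The *YAP1* peaks of the 4 *ubc9-6* lists were 5225 to 5344 bp wide and also occupied *MRPL39*, *ERG6* and *MIN4*. The peak behind the *MSN2* call also occupied *CCS1* and *SUB1*, and those behind the *MSN4* calls also occupied *BLI1* and *FBA1*. This cover is not of the regulator genes alone.

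**Figure D4:**
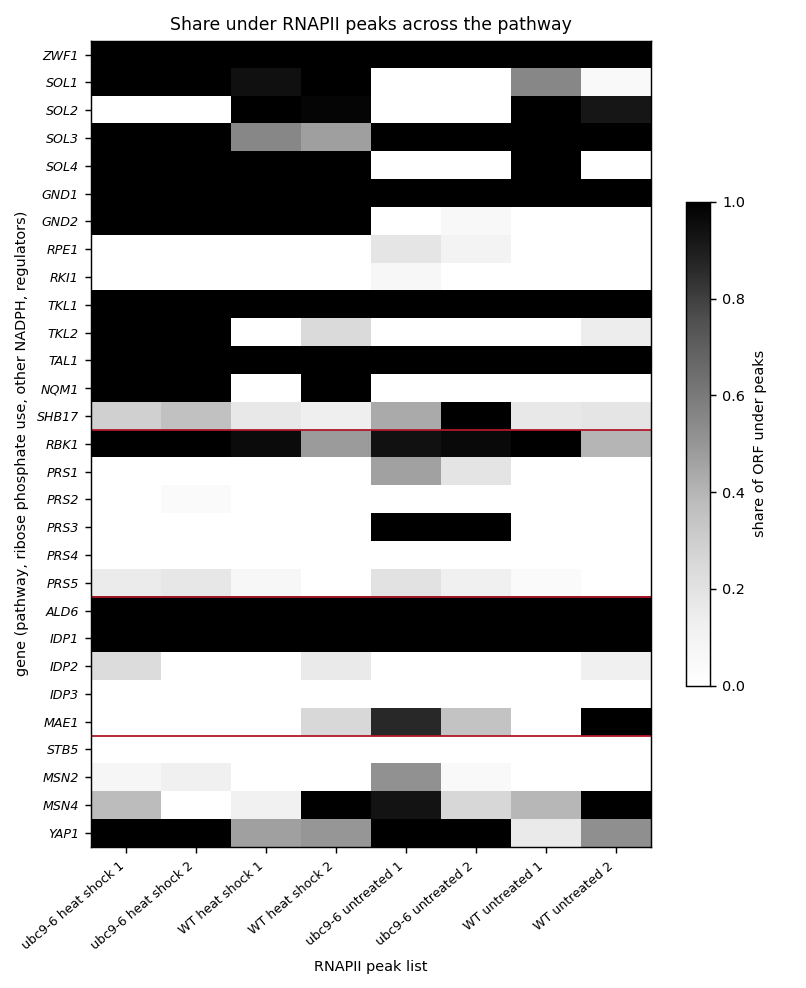
Share of each ORF under RNAPII peaks, from 0 (white) to 1 (black), for 29 genes (rows) in 8 lists (columns, heat shock left, untreated right). Red lines divide the pathway, the genes of ribose phosphate use, other enzymes yielding NADPH, and regulators. GND2 is dark in the 4 heat shock lists, TKL2 in the 2 ubc9-6 heat shock lists, and ZWF1, GND1, TKL1 and TAL1 in all 8.

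For each gene, the ORFs with the most similar pattern over the 8 lists were found by the mean absolute difference in covered share and in rank percentile (as fractions), leaving out ORFs under the same peak. Where no peak overlapped an ORF, its rank term was set to the weakest value. Where *GND2* and *TKL2* were covered fully, the rank is that of the peak shared with *ENO1* or *TEF2*. Their matches therefore rest in part on the level of these neighbors. For *GND2* the most similar ORFs were *YAR1* (0.014), *SPI1* (0.042) and *YCR022C* (0.077). *YAR1* and *SPI1* were covered fully in all 4 heat shock lists and by 0 in all 4 untreated lists. For *TKL2* they were YOR161C-C (0.058), YBR182C-A (0.116) and *BAG7* (0.117), of which YOR161C-C had shares of 1 and 1 in *ubc9-6* heat shock lists and 0 in the other 6. For *GND1* they were *HXK2*, the hexokinase gene (0.022), *SRL1* (0.027) and *TDA2* (0.028, at which 2 ORFs tied). For *TKL1* they were *RPL41A* and *VMA1*, which tied under a shared peak (0.018), and *SSS1* (0.019). For *TAL1* they were YAL037C-A and *CDC19*, the pyruvate kinase gene, which tied as well (0.006), and YGL088W (0.007). For *ZWF1* they were *SFK1* (0.020), *PST2* (0.021) and *PRC1* (0.022). *SFK1* ranked 318 and 363 in *ubc9-6* heat shock lists and 290 and 357 in WT heat shock lists, against 824 and 727 in *ubc9-6* untreated lists and 336 and 396 in WT untreated lists.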

How the data were processed

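RNAPII ChIP-seq covers 16 samples, 8 immunoprecipitates and 8 inputs, and the 8 immunoprecipitates have a peak list each. According to the methods and the submitters' processing notes, the authors trimmed reads, aligned them with Bowtie2 2.3.5 to sacCer3 and called broad peaks with MACS2 2.1.1.20160309 against input, per replicate. The deposited lists give peak starts and ends, a mean fold enrichment (a ratio) and the −log10 of p and q. Reads were not used, so the study's read model could not be fitted and depth is unknown. Covered shares and fold ranks were computed per list (Python 3.11.15, numpy 2.4.6, pandas 2.3.3, Biopython 1.88) for 6002 nuclear ORFs of the R64 annotation, introns included, and all peaks ended within the R64 chromosomes. Tests were exact permutations of lists, two-sided, with Benjamini-Hochberg adjustment over all ORFs tested. The methods describe independent replicates. Scripts were tested on simulated data. Named genes are the 6 members, fixed lists of 8 pathway, 6 ribose phosphate, 5 NADPH and 4 regulator genes, *UBC9*, ORFs sharing a peak or adjacent, and the 3 ORFs of most similar pattern. Members and lists were chosen with earlier results of these data known.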

Additional observations from a re-analysis of the deposited data

How the results depend on the processing

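The alternatives were peaks of −log10 q of at least 5, the 1000 best peaks by q, ORFs without 100 bp at each end, rank by q, the overlapping peak of highest fold, occupancy at 0.25 or 0.75, and leaving out each list. Most of the 460 recomputed values say little about stability: 96 are shares of genes at 1 in all lists, 144 are counts without a test, and the stratified differences cannot pass 0.05. Of 176 other stratified differences, 172 kept their direction and the other 4 were 0. These were the strain difference in *GND2* share, 0.013, which was 0 with the stricter q, the 1000 best peaks or shortened ORFs, and 0 to 0.026 when a list was left out. Of 44 values of the isozyme differences over all lists, which could pass 0.05, 37 kept their side of it. For the pairs of *GND1*, *TKL1* and *TAL1*, which were at 1 in all lists, the sign-flip p follows only from the number of lists that differed. *TKL1* minus *TKL2* ranged from 0.659 to 0.802 when a list was left out, with exact p from 0.0313 to 0.0625, and *TAL1* minus *NQM1* was 0.75 with the 1000 best peaks (exact sign flips, p = 0.0313).

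Deviations of same-numbered lists correlated at 0.339 between the WT groups and at -0.005 to 0.046 in the other 5 pairs of groups, so the numbers were not taken to pair lists across strains or within *ubc9-6*. With the replicate number as a block, fitted for covered shares and the change of isozyme differences, the heat shock difference of *GND2* was 0.987 (exact sign flips of 4 pairs, p = 0.125, the smallest possible) and of *TKL2* 0.525 (p = 0.25 by the same exact test). Neither fit can pass 0.05.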
